A study of Mus musculus with 2 samples.

Results

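The cells described here are young hematopoietic stem cells (HSCs) of 1 single-cell ATAC-seq library, made from the bone marrow of female C57BL/6 mice at 10 weeks of age. Members were the barcodes that the deposited barcode table calls cells and that carried more than 3000 and fewer than 20000 fragments in the peaks of the authors. Of 5028 called cells in this library, 4887 were members, out of 8722 called cells in both libraries of the study. The other library held HSCs of female C57BL/6 mice at 20 months of age, and 3404 of its cells lay within the same limits. Both were sorted by surface antigens as positive for Sca-1, c-kit and CD150 and negative for CD34, CD48, Flt3, lineage antigens (Lin) and IL-7, which the methods give as IL-7Rα, with no transgene or treatment named. The bones used were the backbone, pelvis, femurs and tibiae, and the number of mice per library is not given in the sources used here. With 1 library per age there was no replicate, so no test was made, and intervals cover counting error only. Of the called cells outside the limits, 129 lay at or under the minimum and 12 at or over the maximum. The nearest barcodes outside had 2997 and 20293 in-peak fragments, and the nearest inside had 3002 and 19862.

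HSCs are rare, mostly resting marrow cells that renew themselves and give rise to all blood lineages. In ATAC-seq a transposase cuts DNA where no nucleosome or other protein covers it, so that short fragments come from open stretches and longer ones span nucleosomes. Accessibility of a gene is not its expression, and genes of a lineage can be open in stem cells that do not use them. Promoters of genes used in most tissues tend to be rich in CpG and open in nearly every cell type, whereas distal elements such as enhancers differ more between cell types.

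The members held 50065741 fragments on chromosomes 1 to 19 and X, with a lowest, median and highest of 3556, 9888 and 38229 fragments per cell. A median of 83.0% of the fragments of a cell lay in the peaks of the authors. Mitochondrial DNA took 1.88% of read pairs and duplicates took 15.1%. Of the barcodes, 26 were also members of the 20-month library. No fragment position was listed for more than 1 barcode, so droplets with several barcodes could not be sought through shared fragments, and no doublet caller was run.

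Peaks called here on the summed cells numbered 141578, with a median width of 287 bp, and covered 53.8 Mb or 2.04% of the genome. Of these, 109098 (77.1%) were distal, with no start site within 1000 bp. The most cut 150 bp of an intronic peak at each of 6 loci are printed here, because the values that follow turn on these genes. They were read on the strand of the gene from the GRCm38 sequence of RefSeq, the build that mm10 names, and capitals mark matches to the fixed motifs searched in distal peaks, on either strand. Of these genes, Hlf, Mecom, Fgd5 and Meis1 are marker genes of HSCs, Kit encodes the c-kit receptor used in the sort, and Firre is a long noncoding RNA gene of the X chromosome that returns among the places that differed between cells.
Hlf: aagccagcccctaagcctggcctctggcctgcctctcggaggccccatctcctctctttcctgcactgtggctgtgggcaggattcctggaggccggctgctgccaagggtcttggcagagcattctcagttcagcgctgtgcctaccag
Mecom: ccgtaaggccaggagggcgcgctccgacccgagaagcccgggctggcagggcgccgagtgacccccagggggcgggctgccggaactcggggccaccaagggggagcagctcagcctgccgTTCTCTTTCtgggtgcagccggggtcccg
Fgd5: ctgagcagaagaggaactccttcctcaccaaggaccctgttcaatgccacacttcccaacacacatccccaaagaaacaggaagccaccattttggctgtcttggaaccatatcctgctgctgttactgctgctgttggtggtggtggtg
Meis1: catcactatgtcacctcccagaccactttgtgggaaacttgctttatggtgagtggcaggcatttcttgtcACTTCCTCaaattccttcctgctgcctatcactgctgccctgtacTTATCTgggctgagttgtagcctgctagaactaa
Kit: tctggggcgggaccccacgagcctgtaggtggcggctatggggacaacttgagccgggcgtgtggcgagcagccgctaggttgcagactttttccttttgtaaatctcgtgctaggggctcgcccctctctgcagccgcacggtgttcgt
Firre: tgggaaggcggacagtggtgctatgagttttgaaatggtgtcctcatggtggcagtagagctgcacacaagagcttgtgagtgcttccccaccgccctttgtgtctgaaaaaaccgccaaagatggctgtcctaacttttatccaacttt

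All 6 stretches are intronic. The Hlf stretch (chr11:90382114-90382263, minus strand) lies 8706 bp inside the gene, and its peak held 565 fragments, the second most of 21 peaks of the locus. The Mecom stretch (chr3:30508421-30508570, minus strand) lies 39512 bp inside the gene in the strongest of 109 peaks, with 1933 fragments, and holds 1 match to the IRF motif. The Fgd5 stretch (chr6:91979767-91979916, plus strand) lies 964 bp inside and the Kit stretch (chr5:75575738-75575887, plus strand) 897 bp inside, in peaks of 544 and 682 fragments. The Meis1 stretch (chr11:18970093-18970242, minus strand) lies 48817 bp inside the gene in the strongest of 28 peaks, with 1458 fragments, and holds 1 match to PU.1 and 1 to GATA. The Firre stretch (chrX:50572270-50572419, minus strand) lies 62976 bp inside, in the strongest of 29 peaks, with 607 fragments. A match is a description of the letters only. The central 200 bp of 9.33%, 8.68% and 9.53% of all distal peaks held the IRF, PU.1 and GATA motifs. The printed stretches are shorter, at 150 bp. Those of Mecom, Fgd5 and Kit lie in peaks within 1000 bp of an annotated start, so they are not distal peaks.

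Promoter accessibility was read as fragments with at least 1 end within 1 kb of the 5' end of a gene, per 1000000 fragments (FPM), and ranked among 21755 protein-coding genes. A percentile of 50 is the median gene, at 10.1 FPM, and the 95th percentile stood at 45.0 FPM. Marker genes of HSCs were spread over most of this scale at their promoters and stood higher over their gene bodies. Their median promoter percentile was 62.1 (order-statistic 95% interval over 12 genes 49.9 to 80.7), with none at or above the 90th percentile. Over gene bodies, from 1 kb past the 5' end to the 3' end and per kb, the median was 80.8 (68.9 to 94.5), with 5 of 12 at or above the 90th percentile among 20199 genes.

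Hlf, which encodes a PAR bZIP transcription factor of stem cells, had 1234 promoter fragments, or 24.6 FPM (exact Poisson 95% interval 23.3 to 26.1), at the 74.7th percentile. Meis1, a TALE homeobox factor, stood at 28.6 FPM (27.1 to 30.1) and the 80.7th percentile. By 5' end it was the highest of the 5 given markers, Hlf, Mecom, Procr, Fgd5 and Meis1. Fgd5, a guanine nucleotide exchange factor used to mark HSCs, stood at 15.5 FPM (14.4 to 16.7) and the 58.7th percentile. Procr, the receptor for protein C known as EPCR, stood at 10.1 FPM (9.23 to 11.01), at the median of all genes. At least 1 promoter fragment was seen in 21.8% of cells for Hlf, 24.7% for Meis1, 14.4% for Fgd5 and 9.60% for Procr.

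Mecom, which encodes the zinc finger factor EVI1, had 18 fragments at the 5' end of its longest transcript, or 0.360 FPM (0.213 to 0.568), at the 22.9th percentile. An annotated start 38521 bp further inside had 35.9 FPM, at the 87.6th percentile when the highest start of each gene was used. That start lies within the strongest peak of the locus, whose most cut stretch is printed above. Mecom thus stood lowest or highest of the 5 markers according to the start site read. Ndn, an imprinted gene, had 8 promoter fragments (0.160 FPM, 16.4th percentile) against a gene-body density of 2.51 FPM per kb, at the 94.8th percentile. Ctnnal1, which encodes alpha-catulin, and Mllt3, a subunit of elongation complexes, had the highest promoters of the list, at 35.5 and 32.8 FPM.

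**Figure D1:**
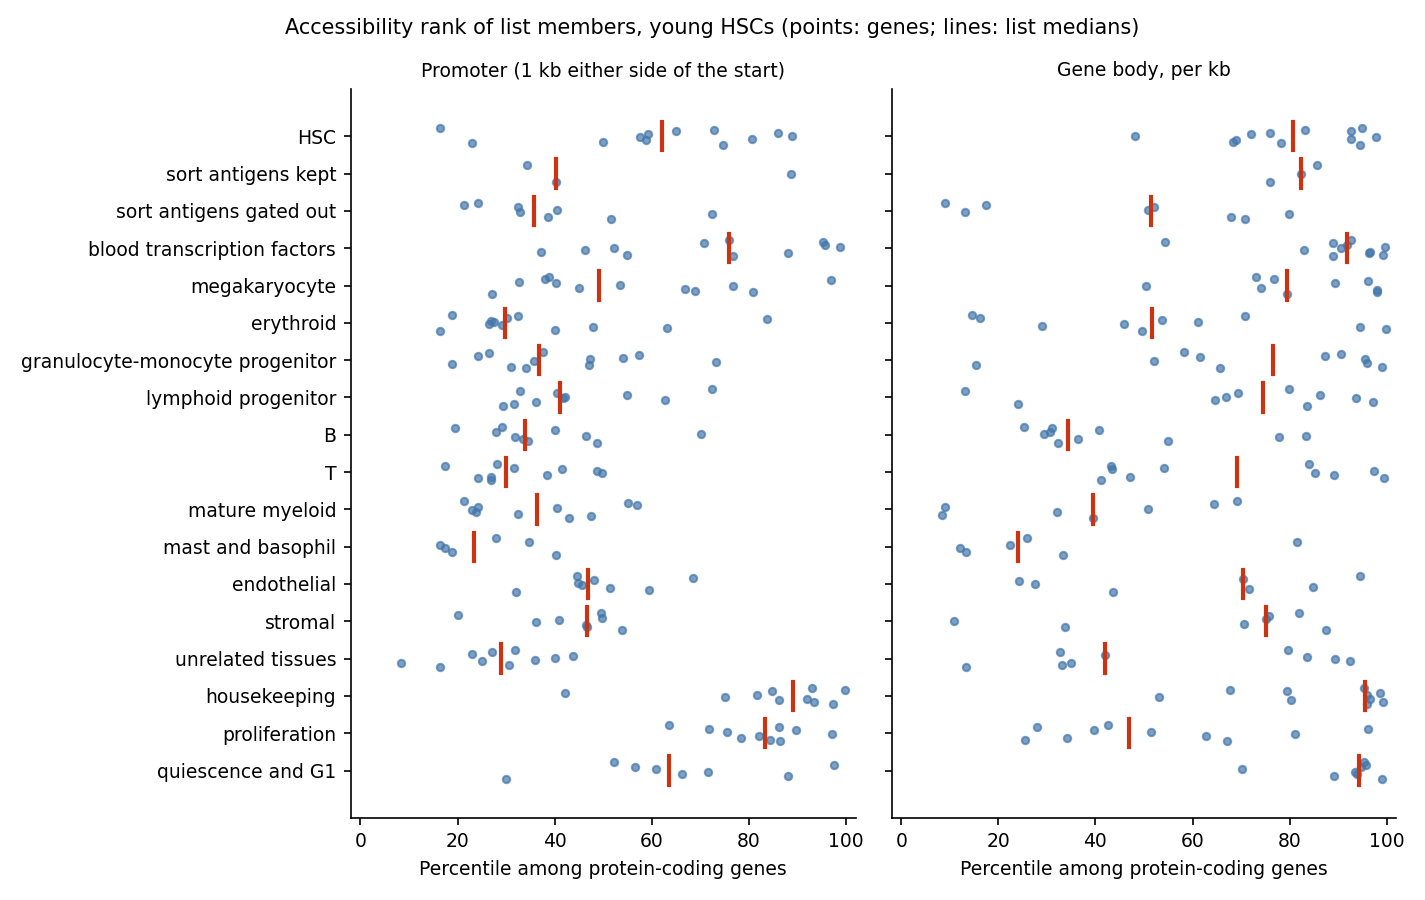
Percentile of each gene of 18 lists among protein-coding genes, for promoter fragments (left) and for gene-body fragments per kb (right), where points are genes and red lines are list medians. HSC genes have a median of 62.1 at promoters and 80.8 over bodies, while proliferation genes go the other way, from 83.3 to 46.9.

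The antigens of the sort did not separate by their side of the gate at the promoter. Kit stood at 35.5 FPM (33.9 to 37.2) and the 88.8th percentile. Slamf1, which encodes CD150, stood at 4.91 FPM (4.32 to 5.57), and Ly6a, which encodes Sca-1, at 2.08 FPM (1.70 to 2.52). These promoters were at the 40.2nd and 34.3rd percentiles although the cells had been gated as positive for both proteins. Of the antigens gated out, Flt3, the receptor for FLT3 ligand, stood at 23.4 FPM (22.1 to 24.8) and the 72.4th percentile, and Cd34 at 11.2 FPM (10.3 to 12.1). Flt3 and Cd34 promoters thus had more fragments than those of Slamf1 and Ly6a, with intervals that did not overlap. Cd48 stood at 4.15 FPM (3.61 to 4.76), which overlapped the interval of Slamf1, and Il7r at 1.58 FPM (1.25 to 1.97). Itgam, which encodes CD11b, stood at 5.07 FPM and Cd4 at 1.46 FPM. Cd8a and Ly6g, the antigens of cytotoxic T cells and granulocytes, were near the floor of the scale at 0.2996 and 0.419 FPM. Over gene bodies the 3 kept antigens were at the 76.0th to 85.7th percentiles. The gene bodies of the 8 antigens gated out had a median at the 51.4th percentile and ranged from 8.99 for Ly6g to 79.9 for Flt3.

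Transcription factors of early blood cells had the most open gene bodies among the blood lists. The median of 11 genes was the 91.8th percentile over bodies and the 75.8th at promoters. With the promoter and 2 kb upstream added to the body it was 77.5, below megakaryocyte genes at 79.6. Lyl1, a bHLH factor, had 60.9 FPM at its promoter (98.8th percentile), and Etv6, an ETS repressor, had 47.0 FPM (95.7th). The lowest promoters were those of Lmo2, a LIM adaptor, at 3.34 FPM, and of Erg, an ETS factor, at 8.01 FPM. Both had a stronger annotated start further inside, 25.9 FPM at 12258 bp for Lmo2 and 17.2 FPM at 127245 bp for Erg. Gata2, a zinc finger factor of stem and mast cells, stood at the 54.9th percentile by its promoter and at the 99.3rd by its gene body, with 6.34 FPM per kb. It too had a stronger annotated start, 20.2 FPM at 4443 bp against 13.1 at its 5' end, in the stretch counted as body.

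Among lineage genes, the megakaryocyte list stood highest, with medians at the 49.2nd percentile for promoters and the 79.6th for bodies. Its highest promoters were Nfe2, a bZIP factor of platelet formation, at 50.2 FPM (96.8th percentile), and Pf4, platelet factor 4, at 28.8 FPM (80.9th). Its lowest were Ppbp, a platelet chemokine, at 1.52 FPM and Vwf, von Willebrand factor, at 0.599 FPM. Vwf had 21.8 FPM at an annotated start 56776 bp inside the gene. In the erythroid list the promoter median was 29.7, from Tfrc, the transferrin receptor, at 30.9 FPM and Epor, the erythropoietin receptor, at 18.1 FPM, to Car1 at 0.220 FPM and Gata1 at 0.160 FPM. Hba-a1 (0.559 FPM) has a nearly identical neighbouring copy, so its value is uncertain. The gene body of Klf1, an erythroid zinc finger factor, had 9.83 FPM per kb and stood at the 99.8th percentile, while its promoter stood at the 40.0th.

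Granulocyte-monocyte progenitor genes had medians at the 36.7th percentile for promoters and the 76.5th for bodies. Cebpa, a bZIP factor of myeloid commitment, had 23.8 FPM (73.3rd percentile) and Irf8 had 14.7 FPM, against 0.419 FPM for Ms4a3 and 0.220 FPM for Ctsg, which encodes the granule protease cathepsin G. Lymphoid progenitor genes had medians at 41.0 and 74.6. Flt3 and Satb1, a chromatin organizer (17.8 FPM), led this list, and Rag1 (1.24 FPM), a subunit of the V(D)J recombinase, and Dntt (0.819 FPM), the terminal transferase, closed it. Rag2, the partner of Rag1, had a gene body at the 97.1st percentile.

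Genes of mature cells had promoter medians between 23.4 and 36.4, a range that also held the erythroid median. B-cell genes had a promoter median at 33.9, from Vpreb1 (22.1 FPM), part of the surrogate light chain, and Ebf1 (9.35 FPM), to Igll1 (0.659 FPM) and Ms4a1 (0.240 FPM), which encodes CD20. T-cell genes had a promoter median at 29.9, with Tcf7 (10.1 FPM) and Gata3 (9.35 FPM), both transcription factors, at the top and Cd3d (0.419 FPM) and Zap70 (0.180 FPM) at the bottom. Their body median was 69.1, and the body of Cd3d, a subunit of the T-cell receptor complex, stood at the 99.4th percentile with 7.03 FPM per kb. The mature myeloid list had a promoter median at 36.4, close to that of granulocyte-monocyte progenitor genes, and a body median at 39.4. In it Cd68 had 14.5 FPM and Fcgr1 13.3 FPM, and S100a9 and Ccr2 had 0.360 and 0.2996 FPM. In the mast and basophil list, which had the lowest promoter median at 23.4, Cpa3 had 4.99 FPM, Hdc 2.28, Fcer1a 0.180 and Ms4a2 0.160 FPM. For comparison, 1135 olfactory receptor genes, silent outside the nose, had a promoter median at a percentile of 10.52.

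Genes of other cells of the marrow and of other tissues were read on the same scale. Some of them are known from blood stem cells too, such as Tek, Pecam1 and Emcn of the endothelial list and Runx2 of the stromal list, so these lists are no level of unused genes. Endothelial genes had medians at 46.8 for promoters and 70.3 for bodies, from Sox17 (21.1 FPM) and Kdr (15.999 FPM) to Sox18 (7.13 FPM) and Cdh5, VE-cadherin (1.36 FPM). Stromal genes had medians at 46.6 and 75.1, from Col1a1 (12.5 FPM) and Pdgfrb (10.0 FPM) to Lepr, the leptin receptor (2.84 FPM), and Bglap, osteocalcin (0.260 FPM). Unrelated tissue genes had medians at 28.9 and 42.0, from Gfap (6.69 FPM) and Pax6 (4.81 FPM) to Alb, albumin (0.160 FPM), and Ins2, insulin (0.0599 FPM, 3 fragments). The promoter medians of the endothelial and stromal lists were above those of the granulocyte-monocyte, lymphoid, erythroid, B, T and mature myeloid lists. With 500 bp either side of the start the stromal median was 38.4, below the lymphoid (43.5) and mature myeloid (38.8) medians. The promoters of Pecam1 (10.99 FPM), Runx2 (9.83), Tek (7.69) and Emcn (7.29 FPM) were within the range of the other members of their lists. The share of other marrow cells in the sort was not tested.

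Housekeeping genes stood highest by promoter, with a median at the 89.1st percentile, but with 500 bp either side of the start they stood at 81.3, below proliferation genes at 84.02. Polr2a, the large subunit of RNA polymerase II, had 75.7 FPM and Actb 51.4 FPM. Hprt had 24.9 FPM, and Eef1a1 had 5.89 FPM at its 5' end but 44.9 FPM at a start 7427 bp inside. Proliferation genes, which serve DNA replication and mitosis, had promoters at a median of 83.3 and bodies at 46.9, in cells that mostly rest. Pcna, the sliding clamp of DNA polymerase, had 51.3 FPM, Mcm5 36.5, Rrm2 23.0 and Plk1 18.4 FPM. Genes of quiescence and G1 had bodies at a median of 94.3. Ccnd2, a D-type cyclin, had 53.2 FPM at its promoter and Cdkn1b, which encodes the inhibitor p27, 34.8 FPM, whereas Ccnd3 had 11.4 FPM and Cdkn1a, which encodes p21, 0.899 FPM. Cdkn1a had a gene body at the 99.1st percentile.

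Over all genes the highest promoter window was shared by Hjurp, a histone chaperone of centromeres, and Trpm8, a cold-sensing channel, whose starts lie side by side (121.7 and 121.5 FPM). At least 1 of its fragments was seen in 67.8% of cells. Next came Sp1 (110.8 FPM), Zbtb20 (103.4 FPM), Kpnb1 (99.01 FPM) and Cic (95.2 FPM). Among genes with bodies of at least 10 kb, the densest bodies were those of Mnt, a repressor that pairs with MAX, at 10.53 FPM per kb, and Per1, a clock gene, at 10.3. Then followed Maff (7.41), Csrnp1 (6.74), Pik3ip1 (6.61), Bcl10 (6.46), Mknk2 (6.43), Nr4a1 (6.41), Gata2 (6.34) and Ywhaz (6.33 FPM per kb). Per1, Maff, Csrnp1 and Nr4a1 are known as genes that respond within minutes to stimuli. Bcl10 and Ywhaz had 5' ends at 2.16 and 0.639 FPM, at the 34.5th and 27.7th percentiles. Both had a stronger annotated start inside the stretch counted as body. These starts had 56.9 FPM at 1553 bp for Bcl10 and 74.0 FPM at 3410 bp for Ywhaz. Csrnp1, Pik3ip1, Nr4a1 and, as given above, Gata2 also had a stronger annotated start inside the stretch counted as body. Its level was 43.4 FPM for Csrnp1, against 21.9 at the 5' end. For Pik3ip1 it was 33.5 against 15.8 FPM, and for Nr4a1 44.3 against 27.2 FPM. The body densities of these genes thus include fragments of such starts.

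Sequence composition followed the promoter rank. For 14228 genes whose promoter sequence from RefSeq could be matched, the ratio of observed to expected CpG had a median of 0.162 under the 25th percentile, 0.404 from the 25th to the 50th, 0.784 from the 50th to the 90th and 0.854 at or above the 90th. A ratio over 0.6 was found in 3.74%, 31.4%, 78.2% and 92% of promoters in these classes. The SP motif (GGGGCGGGG) was present in 1.83% of the lowest class and 31.7% of the highest, and the GATA motif (AGATAA) in 16.96% and 3.48%. All 10 proliferation promoters had a ratio over 0.6, while none of the matched promoters of the megakaryocyte (9), mature myeloid (8) and mast and basophil (6) lists did. Among markers the ratio was 0.893 for Hlf, 0.973 for Fgd5, 0.589 for Meis1, 0.528 for Procr, 0.621 for Kit and 0.223 for Slamf1.

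Fragment lengths separated open from nucleosomal places. Fragments shorter than the DNA wrapped around 1 nucleosome, called short here, made up 59.8% of all fragments, and 31.6% had the length of 1 nucleosome. The short share was 66.3% for fragments with an end in a promoter, 69.4% in distal peaks, 42.2% in gene bodies outside peaks and 43.1% between genes outside peaks. All exact binomial intervals of these shares were narrower than 0.1 percentage points. The short share rose with promoter rank, from 31.8% (31.3 to 32.2) under the 25th percentile and 55.3% from the 25th to the 50th, to 66.3% from the 50th to the 90th and 73.5% at or above the 90th. Among lists, promoter fragments were short in 67.4% of cases (66.5 to 68.3) for HSC genes, 71.5% (70.5 to 72.4) for megakaryocyte genes, 72.2% (71.5 to 72.8) for housekeeping genes and 46.8% (43.5 to 50.1) for genes of unrelated tissues. Chromosome X had a short share of 56.4%.

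Outside peaks the length distribution, smoothed over neighbouring lengths, peaked at 166 bp and again at 349 bp, the lengths of 1 and 2 nucleosomes with linker DNA. Lengths under a nucleosome carried a ripple with a period of 10 to 11 bp, the pitch of the DNA helix. At exactly 40 bp only 1.56 of 10000 fragments were listed, against 56.8 at 39 bp and 94.8 at 41 bp. In promoters, distal peaks and outside peaks alike the value at 40 bp was under 2. Without smoothing, and over all fragments, peaks of 46.9 of 10000 fragments at 159 bp and 46.4 at 168 bp stood out in the nucleosome range. The gap at 40 bp has no counterpart in the ripple, and its cause was not tested.

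**Figure D2:**
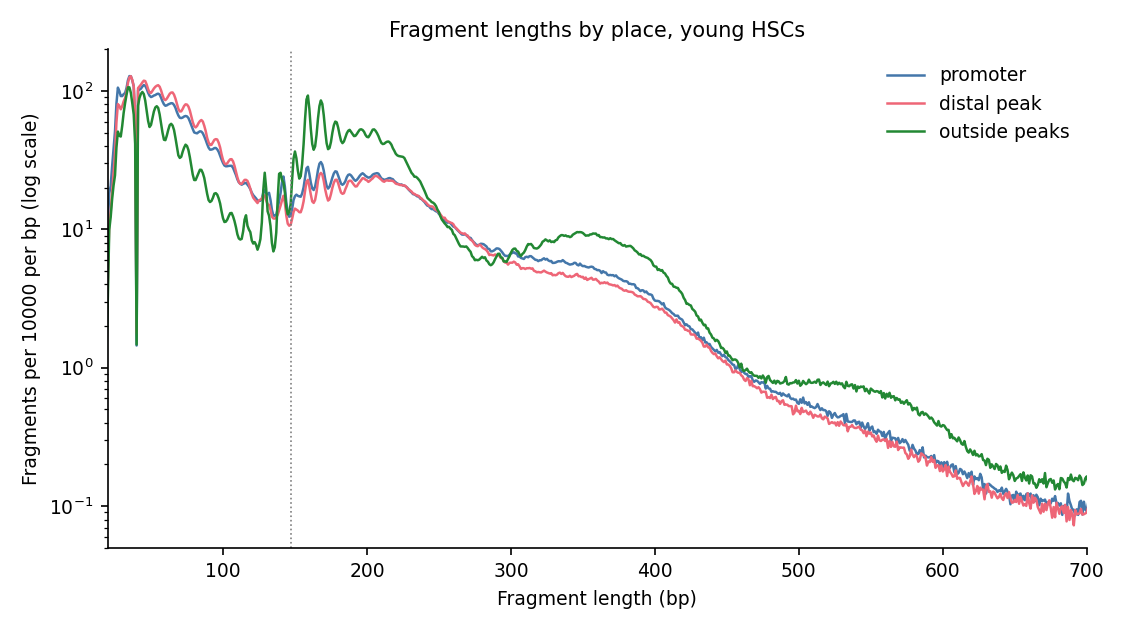
Fragment lengths in bp (x axis) as fragments per 10000 of each class and bp (log y axis), for fragments with an end in a promoter, in a distal peak, or outside peaks, with the limit of short fragments dotted. Fragments outside peaks have humps near 166 and 349 bp, promoters and distal peaks hold more short fragments, and all 3 curves drop to under 2 at 40 bp.

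Around start sites the short fragments formed a single summit just upstream of the start, 52 bp before it for promoters at or above the 90th percentile and 26 bp before it for those from the 50th to the 90th. Midpoints of nucleosome-sized fragments marked the first nucleosome after the start at 123 bp and 122 bp in these classes. A second followed at 342 and 332 bp. The nucleosome before the start lay at -206 bp in the top class and -171 bp in the next, so that the open stretch was wider at the most open promoters while the first downstream nucleosome kept its place. From the 25th to the 50th percentile the first nucleosome was at 104 bp with 0.0708 midpoints per bp per gene, against 0.707 in the top class. Under the 25th percentile there were 2.17 short and 3.49 nucleosome-sized fragments per gene. The summit of the short ones was low, 0.00213 per bp per gene at -79 bp, against 3.33 in the top class. Nucleosome-sized midpoints after the start were highest at 124 bp, with 0.00232.

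**Figure D3:**
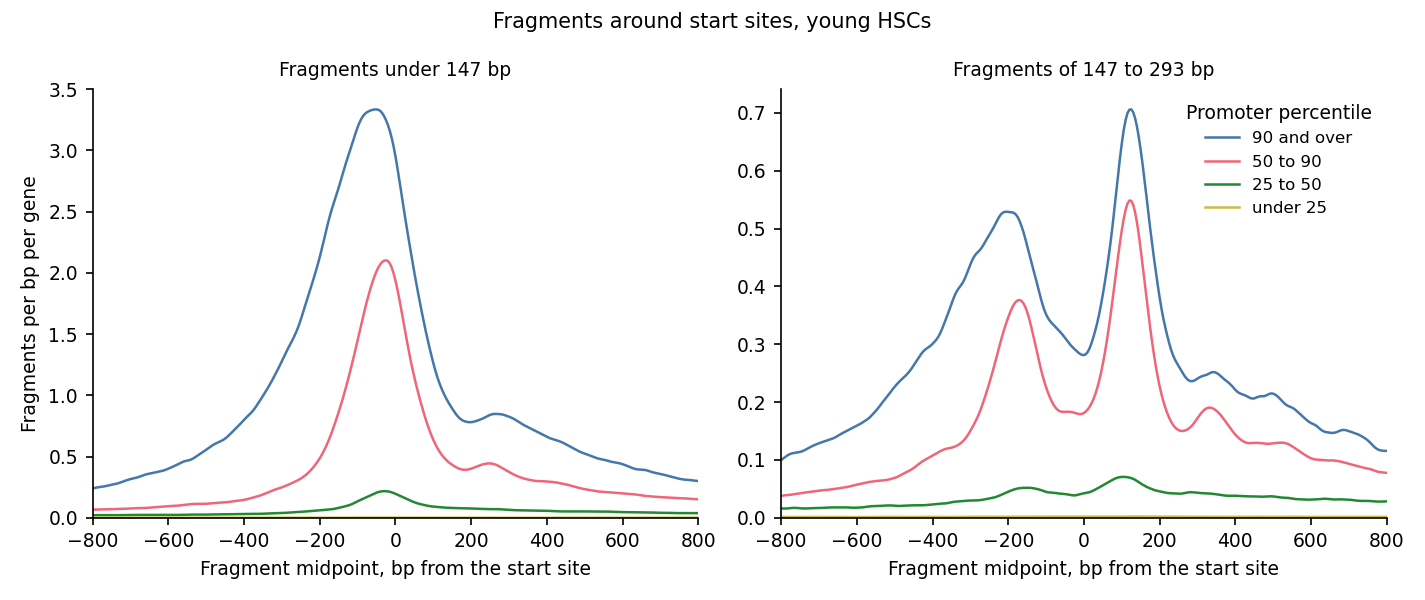
Midpoints of short (left) and nucleosome-sized (right) fragments around start sites in bp (x axis), as fragments per bp per gene, for 4 classes of promoter percentile. The nucleosome after the start lies at 122 to 123 bp in both upper classes, while the one before it moves from -171 to -206 bp, and genes under the 25th percentile stay near 0.

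Cells differed in these qualities by more than counting. The short share per cell ran from 36.4% to 73.8% with a median of 60.02% and an SD of 4.05 percentage points, where counting alone gives 0.515. The promoter share ran from 12.03% to 49.3% with an SD of 3.39 against 0.504. The share on chromosome X ran from 1.23% to 5.79% with a median of 2.02% and an SD of 0.209 against 0.148. The promoter share did not move with the short share (r = -0.00984 over 4887 cells, which share 1 library), and the share in distal peaks did (r = 0.403).

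To ask which loci varied between cells beyond counting, each cell was thinned at random to 5000 fragments, which left 4658 cells and left out 229. The dispersion of a locus is its variance over its mean across cells, 1 for counting alone. Excess is the dispersion minus the median of loci of like mean, and loci with a mean of at least 0.1 fragments and an excess over 0.2 were called. Of 12612 gene loci (2 kb upstream to the 3' end) 14 were called, or 0.111%. The median dispersion was 1.02, with 90% of loci between 0.983 and 1.08. None fell more than 0.2 below loci of like mean. The number called moved with the setting. It was 49 when cells were thinned to 8000 fragments, which also left fewer cells (3523). Without thinning, where depth also differs between cells, it was 145. The same 12612 loci were read each time, and the count of 14 holds only for 5000 fragments and this threshold.

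Single genes of stem cells and lineages stayed close to loci of like mean. Of the HSC list, 10 of 12 loci passed the minimum and 0 were called, where 0.111% of all loci were, so that the count alone says nothing about these genes. Their excess ran from -0.025 to 0.059. Mecom had a mean of 2.77 fragments per cell and a dispersion of 1.10, and 7.60% of cells had none against 6.26% for a Poisson count of the same mean. Meis1 had a mean of 1.64 and a dispersion of 1.08, Hlf 0.785 and 1.05, Fgd5 0.377 and 1.05, and Kit 0.617 and 1.06. Hlf, Meis1 and Mecom were set against the same median dispersion, 1.05, so for them loci of like mean spanned a wide range of means. Procr, with a mean of 0.0659, was under the minimum. Mllt3 had a dispersion of 1.11 and Flt3 1.09, at the 97.0th and 97.1st percentiles of excess. On that scale Mecom stood at 95.1, Meis1 at 90.1, Fgd5 at 84.3, Kit at 80.3 and Hlf at 59.1. In the 18 lists the largest excess of any member was 0.076, in the lymphoid progenitor list, and 0 members were called, a count that so low a share over all loci would also give.

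Most called loci rested on 1 cell. Syt1, a vesicle calcium sensor of neurons, had the largest dispersion, 1.59. One cell held 17 of its fragments, spread over 337 kb of the locus, and the next cell held 3. The cells with the most fragments held 18 at Astn1, 21 at Cntn5, 18 at Pak3, 18 at Pld5, 36 at Thsd4, 10 at Unc5d, 12 at Lrig3, 10 at Aspg, 12 at Ppfia2 and 16 at Tenm2. Gpc6 rested on a pair of cells, with 18 and 16 fragments against 5 in the next, and at Sgcd 3 cells held 13, 11 and 9. The means of these loci were 0.107 to 0.978 fragments per cell. Of the 14 loci, 2 stayed over the threshold without their highest cell, Iqcn with an excess of 0.372 and Sgcd with 0.292. Sgcd fell under it without the deepest 5% of cells (0.198), and without the cells with a chromosome in excess described below (0.153). Cntn5, Sgcd, Tenm2, Unc5d, Gpc6, Thsd4 and Syt1 span over 500 kb each. Cntn5, Tenm2 and Unc5d serve contacts and guidance of neurons, and Sgcd encodes a sarcoglycan of muscle. Loci just under the threshold were Stra6 (0.193), Nrg3 (0.188), Lrp1b (0.187), Dab1 (0.185), Rgs1 (0.183) and Csmd1 (0.180). Fosb was next (0.165), and is named here after its value was seen.

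The same few cells recurred. The cell with the most fragments among the members (38229) was the highest at Sgcd, Unc5d and Tenm2, with a promoter share of 14.9% and a short share of 39.7%. Another was highest at Syt1 and Ppfia2, which both lie on chromosome 10, and another at Thsd4 and Stra6, both on chromosome 9. In 19 cells (0.408%) at least 1 chromosome was over its mean by more than 8 counting SDs, in 30 pairs of cell and chromosome, of which 4 were on X. The chromosome then held 1.47 to 2.80 times its mean share. The median promoter share of these cells was 28.4% against 36.0% in all cells, and their median depth 14339 against 9888 fragments. Of the 14 loci, 9 had their highest cell among these 19, and without these cells 5 loci were called. Within 10 strata of promoter share, 14 of the 14 loci stayed over the threshold. Without the deepest 5% of cells 9 did, and Sgcd, Unc5d, Gpc6, Tenm2 and Lrig3 fell under it. The part of depth and of the promoter share in the chromosome excesses of the 19 cells was not tested.

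In the 20-month library, which took no part in the choice, 1 of the 14 loci passed 0.2. That was Iqcn, at 0.334. In that library itself 58 of 12479 loci (0.465%) were called.

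**Figure D4:**
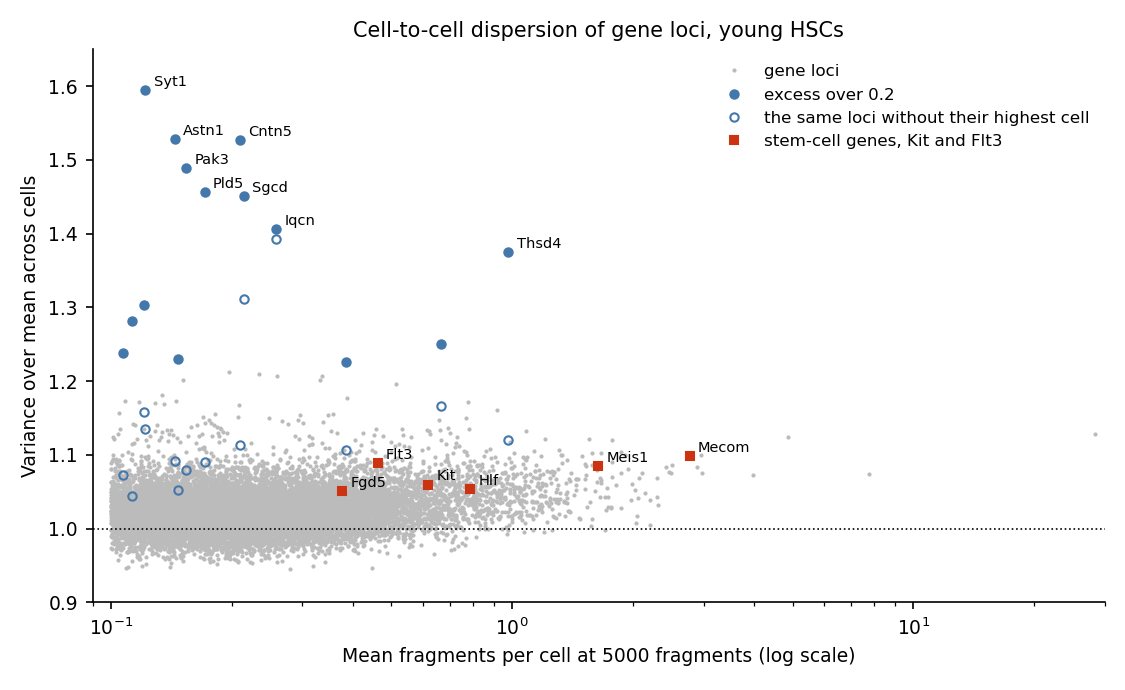
Dispersion (variance over mean across 4658 cells) of each gene locus against its mean fragments per cell on a log axis, young HSCs thinned to 5000 fragments. Filled blue points are the 14 called loci, open circles the same loci without their highest cell, and red squares Hlf, Mecom, Fgd5, Meis1, Kit and Flt3, which lie at 1.05 to 1.10. Of the open circles, Iqcn and Sgcd stay over the threshold, and Unc5d (excess 0.137), Gpc6 (0.131) and Syt1 (0.113) are the next highest.

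Iqcn, which encodes a protein with IQ motifs, differed from the other called loci in that many cells stood behind its value. Its locus (chr8:70701457-70717650) had a mean of 0.258 fragments and a dispersion of 1.41, and 62 cells (1.33%) held 3 or more fragments against 0.235% for a Poisson count. It contained 0 of the peaks called here. The locus starts just past the 3' end of Jund, a JUN family member of the AP-1 complex, and in the 10 kb past that end (chr8:70700617-70710616) fragments fell off with distance. By kb they numbered 723, 493, 516, 331, 317, 160, 158, 86, 77 and 54. These 10 kb had a dispersion of 1.36 in young cells and 1.30 in the 20-month library. At least 3 fragments were held by 78 cells, where a Poisson count gives 20.7. Jund itself had a dispersion of 1.01. Of the fragments in these 10 kb 63.4% were short, against 66.3% in promoters. Fosb, a partner of JUN proteins, had a dispersion of 1.196 in young and 1.09 in 20-month cells, while Fos (1.05), Jun (1.04), Junb (1.04) and Egr1 (1.03) were nearer 1. Across 4658 cells Iqcn had r = 0.073 with Fosb and 0.072 with Jun. With its neighbour Jund it had only 0.027, with Junb 0.019 and with Fos 0.018. Its r with the promoter share was 0.167. Each of these other genes also rose with the promoter share, from r = 0.0863 for Fos to 0.1297 for Fosb. All are weak relations in sparse counts.

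Bins of 100 kb gave a second view that needs no gene. Of 11761 bins with a mean of at least 0.1 fragments, 9 were called (0.0765%), and the median dispersion was 1.03. The first was chr17:39800001-39900000, with a dispersion of 5.97. In it 99.4% of fragments lay in 6 kb (chr17:39843001-39849000), where GENCODE annotates the rRNA gene CT010467.1 and the noncoding genes Gm26917, Gm42418 and AY036118. This is a stretch of ribosomal DNA (rDNA), the repeated genes of ribosomal RNA, most copies of which are not placed in the build, so that its reads may come from many copies. It took 0.287% of all fragments.

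The rDNA stretch had 0 to 106 fragments per cell, with 3, 8, 13, 19 and 31 at the 5th, 25th, 50th, 75th and 95th percentiles. The SD was 9.31 where counting gives 3.81, or a coefficient of variation (CV) beyond counting of 58.6%. This spread was seen over the whole library rather than in a few cells, and the dispersion without the highest cell exceeded that of like bins by 4.83. In the 20-month library the dispersion was 7.76 and the CV beyond counting 61.5%. The rDNA count moved with the promoter share (r = 0.366), with means of 10.2 and 19.3 in the 1165 cells of lowest and the 1165 of highest promoter share. Within 10 strata of promoter share the excess was still 4.14. It went the other way with the short share (r = -0.173, means of 16.8 and 13.4 in the lowest and highest 1165 cells) and with the share in distal peaks (r = -0.128). It moved little with depth (r = -0.0490), with mitochondrial reads (r = 0.0851) or with the summed loci of HSC genes (r = 0.0314), and somewhat with housekeeping genes (r = 0.106).

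A second place that varied over many cells was Firre on chromosome X (chrX:50555744-50635321), whose RNA is known to hold together regions of several chromosomes and whose gene is known to be transcribed from the inactive X as well. The bin chrX:50500001-50600000 had a dispersion of 1.32 and the next bin, at 1.21, was just under the threshold. The whole gene had a mean of 0.953 fragments and a dispersion of 1.52. In 48.9% of cells no fragment was seen, against 38.6% for a Poisson count, and 3 or more were seen in 11.7% (547 cells) against 7.19%. The 20-month library gave 1.33. Firre held 29 peaks, and its count had r = -0.0929 with the promoter share. Its relation to the rDNA count was r = -0.000578 over 4658 cells.

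A 1-kb stretch of chromosome 11 (chr11:109011001-109012000) held 92.6% of the fragments of the called bin around it. It took 0.0175% of all fragments, and how uniquely reads map to this stretch was not tested. Its dispersion was 1.39 in young and 1.54 in 20-month cells, and 388 cells held 3 or more fragments. The nearest annotated feature in the bin was the pseudogene Gm11668. The other called bins rested on single cells. In these bins the highest cell held 29 fragments at Thsd4 (chr9:60000001-60100000), 23 in chr10:115600001-115700000, 20 at Lvrn on chromosome 18, 15 at Sox9 (chr11:112700001-112800000), 23 at Aspg and Kif26a (chr12:112100001-112200000) and 16 at Stra6 and its neighbours (chr9:58100001-58200000). The next cell held 3 to 7. The bin before that of Aspg, at Tdrd9, was just under the threshold (0.194) and had the same highest cell. Within each bin the fragments of the highest cell were spread over 73.2 to 91.5 kb. Without the highest cell of each bin, the excess of these 6 bins ran from -0.033 to 0.095. Of the 9 called bins 2 were also over the threshold in the 20-month library, the rDNA bin and the bin of chromosome 11 at 109 Mb. In that library itself 76 of 12270 bins (0.619%) were called.

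**Figure D5:**
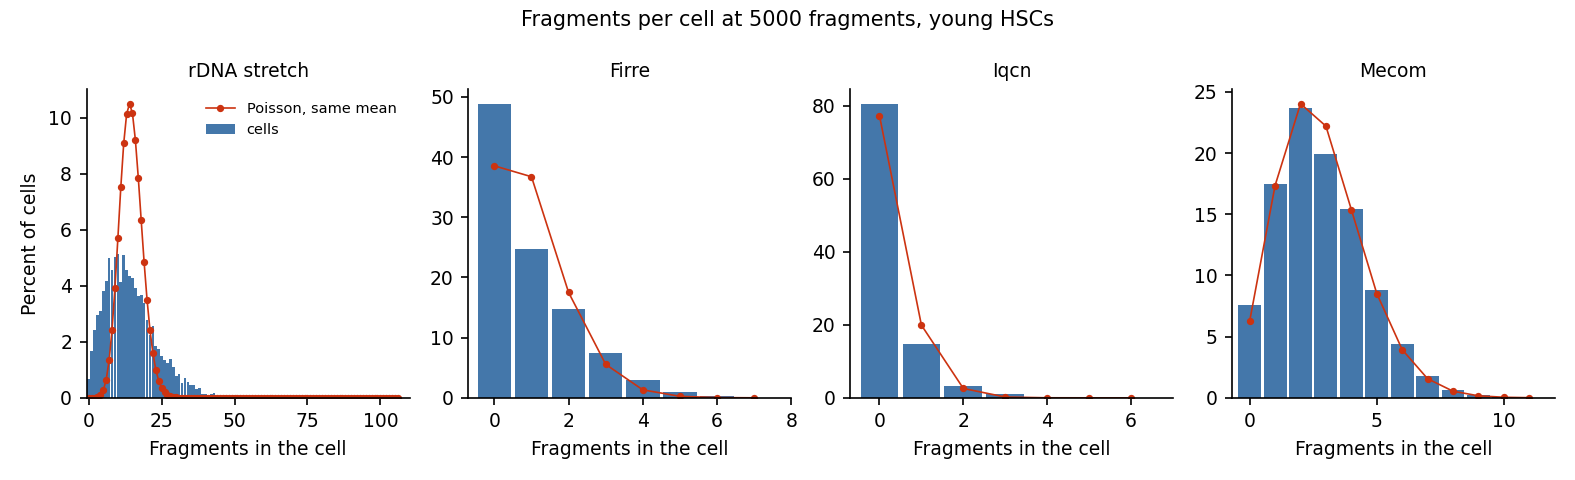
Percent of the 4658 young HSCs (y axis) by fragments in the cell at a depth of 5000 (x axis), at the rDNA stretch, Firre, Iqcn and Mecom, with blue bars for cells and a red line for a Poisson count of the same mean. The bars of rDNA are far wider than the line, and Firre and Iqcn have more cells at 0 and at high counts. Mecom lies nearer the line, with 7.60% of cells at 0 against 6.26%.

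Whole lists were summed per cell to gain counts. HSC genes summed to a mean of 9.60 fragments per cell with a dispersion of 1.15 and a CV beyond counting of 12.5%. The dispersion was the largest of the 18 lists, but it grows with the mean count, which was the second highest, and by CV the list stood among the lower ones. Mast and basophil genes had a CV of 32.2%, unrelated tissue genes 29.2%, mature myeloid genes 28.3%, lymphoid progenitor genes 17.9%, housekeeping genes 14.7% and quiescence genes 5.91%. The dispersion of mast and basophil genes was only 1.02, and 1.002 without Cpa3. Within 10 strata of promoter share the CV was 8.05% for housekeeping genes and 10.6% for HSC genes, so that the order of these lists turned. Mecom gave 28.9% of the fragments of HSC genes, and without it the dispersion of that list was 1.11. Within strata of promoter share it was also 1.11, and in the 20-month library 1.10. Blood transcription factors had a dispersion of 1.11, lymphoid progenitor genes 1.09, megakaryocyte genes 1.06, B-cell genes 1.06, erythroid genes 1.03, granulocyte-monocyte progenitor genes 1.02 and T-cell genes 1.02. Unrelated tissue genes, endothelial genes and housekeeping genes had 1.06 each. Proliferation genes had 1.02 and quiescence genes 1.01. Across 4658 cells, correlations between lists ran from -0.043 to 0.075, the highest between HSC genes and blood transcription factors.

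Motif families were read in distal peaks, with each cell thinned to 1000 distal fragments (4886 cells, 1 left out) and the variance of fragments in peaks holding a motif in their central 200 bp set over the binomial variance. The letters searched on both strands were TGTGGT for RUNX, AGATAA for GATA factors, CAGGAAGT for ETS, GAGGAAGT for PU.1, TGANTCA for AP-1, GCTGAGTCA for CNC factors such as NFE2, TTGCGCAA for CEBP, TGATTTAT for HOX, TGACAG for MEIS, CAGGTG for E proteins and CAGATG for SCL. The others were CCCNNGGGA for EBF, GAAANNGAA for IRF, CTTTGAT for TCF, TAACTG for MYB, CCACACCC for KLF, GGGGCGGGG for SP, TTCNNNGAA for STAT, GGGANTTCC for NF-kB, TGACGTCA for CREB and ATF, TGTTTAC for FOX, and the CTCF motif. ETS and PU.1 letters overlap, and all 2194 peaks with the CNC letters also held those of AP-1.

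Against 102373 windows 5000 bp away and outside peaks, CTCF letters were in 5.50% of distal peaks against 0.0625%, CNC in 2.01% against 0.258%, PU.1 in 8.68% against 1.18%, ETS in 6.98% against 1.43%, and RUNX in 24.5% against 15.2%. GATA letters were in 9.53% against 11.5%. GATA letters were thus less common in peaks than in these windows, as were those of TCF (2.53% against 3.42%), E proteins and FOX. The windows were not matched for base composition, and AGATAA was the only GATA form searched. Whether GATA sites are depleted in open chromatin cannot be read from this. Peaks with them took a mean of 99.03 of 1000 distal fragments per cell, and those with AP-1 letters took 107.

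RUNX had the largest dispersion between cells, 1.86, followed by GATA (1.82), PU.1 (1.71), CTCF (1.61) and AP-1 (1.37). MEIS and IRF had 1.26, MYB 1.06 and TCF 0.988. This measure grows with the share of fragments a family takes, and RUNX peaks took the most. As CVs beyond counting the largest were 17.2% for CEBP, with a mean of only 0.862 fragments per cell, 11.4% for HOX and 10.6% for NF-kB. The dispersion of CEBP was 1.03, and 1.004 with the central 100 bp, so its CV rests on very little variation beyond counting. The families named first had 4.97% for RUNX, among the lower ones, 8.62% for GATA, 8.62% for PU.1 and 9.40% for CTCF. The share of RUNX peaks fell with the promoter share of the cell (r = -0.410) and rose with its short share (r = 0.256), and that of CTCF went the other way (0.288 and -0.222). Within strata of promoter share the dispersions were 1.54 for RUNX, 1.70 for GATA, 1.56 for PU.1, 1.48 for CTCF and 1.37 for AP-1, so that GATA then came first. In the 20-month library, read in the same peaks and without strata, the dispersions were 1.40 for RUNX, 1.39 for GATA, 1.57 for PU.1, 1.504 for CTCF and 1.75 for AP-1. Set against the young values without strata, those of RUNX (1.86) and GATA (1.82) were higher in the young library and that of AP-1 (1.37) lower, a difference of 2 libraries that was not tested. No 20-month values within strata were computed.

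Across the 4886 young cells, RUNX had r = 0.284 with PU.1, 0.268 with MEIS and 0.212 with GATA, and -0.335 with CTCF. PU.1 had r = -0.301 with CTCF and 0.045 with GATA. These shares come from 1 total of distal fragments, so a rise of one lowers others, and peaks can hold several motifs. With the summed loci of gene lists, PU.1 had r = 0.106 for antigens gated out, 0.073 for mature myeloid genes and 0.070 for lymphoid progenitor genes, and -0.131 for HSC genes. RUNX had r = -0.136 for HSC genes and 0.104 for antigens gated out. For housekeeping genes RUNX had r = -0.132 and PU.1 -0.094, so the negative values were not particular to HSC genes. Both shares also fell with the promoter share of the cell (r = -0.410 for RUNX and -0.295 for PU.1). No values of these relations within strata of promoter share were computed. GATA had 0.063 for megakaryocyte and 0.059 for erythroid genes, and PU.1 had -0.050 for erythroid genes. All of these are weak relations in sparse counts and were not tested.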

How the data were processed

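Single-cell ATAC-seq libraries of sorted HSCs were prepared with Chromium Next GEM kits (10x Genomics). The submitters' processing notes name mm10 as the build, Cell Ranger ATAC and Signac. Per the methods the authors used the former for alignment, barcode counting and peak calls, and its fragment lists hold each fragment once, with ends moved for the transposase offset. Deposited for each library were fragment coordinates with barcodes (positions, no normalization) and counts of read pairs per fragment and of fragments per barcode, which also mark called cells. Limits of the study on other cell qualities were not applied here. No columns of comparisons were present, and 0 columns were unused for lack of a sample.

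Fragments were counted in GENCODE M21 genes, once per region with at least 1 end in it, with numpy 2.4.6, pandas 2.3.3, scipy 1.17.1, numba 0.67.0 and pysam 0.24.0. Peaks were called on summed cells where cuts in 151 bp exceeded the higher of the genome mean and the local mean (10000 bp) at a Poisson limit of 1e-06. Loci of like mean were 25 bins. Counting, dispersion and motif steps were tested on simulated data. With 1 library per age no differences were tested and intervals are 95% (exact Poisson, binomial or order-statistic). The members and lists were chosen with earlier results of these data known. Genes named were the 5 given markers and the sort antigens, the 2 highest and 2 lowest promoters of each other list, the 20 loci and 10 bins of largest excess, the 10 densest bodies of at least 10 kb and the 5 highest promoters. Other named genes were chosen after their values were seen. Alternatives changed the cells, fragment lengths, windows, start sites, thinning, thresholds and strata.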

Additional observations from a re-analysis of the deposited data

How the results depend on the processing

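No paired analysis was possible because each age has 1 library, so the replicate number pairs nothing and no replicate could be left out. Promoter ranks of the lists moved by less than their intervals (or, for counts, by under 1.5 times) in 72 of 72 alternatives, gene-body ranks in 67 of 72, list sums in 71 of 72, motif families in 47 of 66, variable bins in 3 of 6, the short share in 1 of 3 and variable gene loci in 1 of 9. For ranks these intervals are wide, because each list holds few genes. At promoters they covered the full range of members for sort antigens kept (34.3 to 88.8) and stromal genes (20.1 to 53.9). A median could hardly leave such an interval, so the counts for ranks say little about stability. The order of some lists changed, as given beside those results. With 2 kb upstream included, the median body percentile was 65.7 for HSC genes, 58.7 for sort antigens kept and 77.5 for blood transcription factors. With bodies of at least 10 kb only it was 28.6 for B-cell genes and 31.8 for unrelated tissues. The short share was 60.02% as a median over cells and 56.2% without fragments ending in promoters. The CV of housekeeping sums within strata of promoter share was 8.05%.

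For motifs, the CV beyond counting within strata was 8.01% for GATA, 3.94% for RUNX, 7.65% for PU.1, 2.89% for MEIS, 2.44% for SCL, 5.42% for SP and 8.35% for CTCF. With the central 100 bp it was 10.46% for GATA, 5.72% for RUNX, 9.42% for PU.1, 6.89% for AP-1, 10.55% for CNC, 13.9% for HOX, 4.58% for E2A, 7.74% for EBF, 7.09% for IRF, 9.54% for KLF and 14.2% for NF-kB. At 2000 distal fragments RUNX had 4.67%.

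Variable gene loci numbered 14 as reported, 49 with cells thinned to 8000 (3523 cells), 145 without thinning, 9 without the deepest 5% of cells, 2 without the highest cell of each locus and 34 with alternate tiles of 5 kb. With an excess over 0.15 they numbered 25 and over 0.3 they numbered 8. Without the 19 cells with a chromosome in excess, an alternative chosen after seeing the data, there were 5. Variable bins numbered 9 as reported, 35 at 8000 fragments, 53 without thinning and 21 with bins of 500 kb. Without thinning the counts also carry differences in depth between cells. An excess under 0.15 was counted at none of the thresholds used, and the depth needed to detect one was not tested.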

Other observations

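Sums over each chromosome, which no list above covers, were more dispersed than counting allows in every chromosome. The variance over the binomial variance ran from 1.24 on chromosome 7 to 1.499 on chromosome X, and chromosomes 17 (1.49) and 11 (1.48) were next to X. The value of chromosome 17 includes the rDNA stretch, and a value without that stretch was not computed. Within strata of promoter share the value was 1.18 on chromosome 7 and 1.48 on X. Without the highest cell it was 1.43 on X, below chromosomes 17 (1.47) and 11 (1.46), and lowest on chromosome 16 (1.196). With all cells and without strata, the CV beyond counting was 2.62% for chromosome 7 and 6.95% for X. In the 20-month library X reached 2.34 and chromosome 6 reached 2.01.

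A 1-kb stretch of chromosome 3 (chr3:5860001-5861000) took 97.1% of the fragments of its bin, with a dispersion of 1.16 in both libraries. It took 0.00853% of all fragments, and how uniquely reads map to it was not tested. The cell with the most rDNA fragments (106) had 15025 fragments in all and a promoter share of 28.1%, below the median cell, although rDNA counts and promoter shares rose together over the library.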
